A study of Camponotus fellah with 299 samples.

Results

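Described here are 100 gene models of the ant Camponotus fellah, a carpenter ant. Their brain transcript levels were higher in ants of high social maturity than in ants of low maturity. Averaged over the 3 colonies, their rank correlation with age given maturity lay within 0.1 of zero. The genes were selected from 14664 gene models counted in the brains of single ants. CPM (counts per M reads) was the count scaled by the library total, and 8182 gene models had a median of 5 CPM or more. Within each colony a partial Spearman rank correlation was taken between CPM and maturity given age, and another between CPM and age given maturity, and each was averaged over the 3 colonies. The age value lay within 0.1 of zero for 5775 gene models, and the 100 of these with the highest maturity value are the members. Maturity and age therefore chose the genes, and every value below that relates them to either label is a description without a test, unless it comes from a colony that the selection left out.

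The study followed ant colonies for a week, counted acts of each ant, and then killed the ants and sequenced their brains, asking how network position is tied to what an ant does and to expression in its brain. Of 299 ants, 289 carried labels of maturity, age, size and behaviour: 87 of colony 2, 98 of colony 3 and the remaining ants of colony 4. The labels give no treatment, strain or caste, and the ants were between 1 and 46 months old, with median ages of 11, 14 and 14 months in colonies 2, 3 and 4. The labels do not define maturity, a number from 0 to 1, or the nurse-forage ratio, and give no unit for body length. In colony 4 the deposited maturity ran the other way, so 1 minus the deposited value was used there, and this oriented maturity rises with age in all 3 colonies. Below 0.25, the low end, stood 162 ants; above 0.75, the high end, stood 87, and 40 lay between.

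In many ants, young workers stay in the nest and tend brood and queen, and move with age to the nest entrance and then outside to forage. The move is flexible: ants of one age can differ in task, and old workers may go on nursing. Tracking has shown that carpenter ant workers form groups of nurses, cleaners and foragers that meet mostly their own kind, and position in this network describes a worker's social role apart from its age. The identifiers of the gene models name a contig and a number and are not paired with gene names in the files. No role can therefore be given to any member, and lists of neuronal, glial, gland, fat body, hormone or immune genes could not be matched, so the tissue label was not checked against markers.

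Libraries held 19.8 to 73.2 M counted reads, with medians of 41.3, 38.3 and 37.2 M in colonies 2, 3 and 4. Maturity was weakly related to the library total, with a Spearman rho of 0.085, -0.056 and 0.135 in the 3 colonies. The labels give no sequencing batch, so none could be modelled. Colony was in the models of all ants, so the p-values below rest on how far ants differ within colonies. Errors after ± are standard errors of a slope (SE). In a whole brain, fewer cells of a type and less RNA per cell cannot be told apart.

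The members were moderately tied to maturity. Their mean partial correlation with maturity ran from 0.312 to 0.653 with a median of 0.362, and that with age from -0.097 to 0.098 with a median of -0.0027. Within single colonies the age value spread further, from -0.3085 to 0.204 in colony 2, -0.149 to 0.277 in colony 3 and -0.188 to 0.260 in colony 4. Its medians there were -0.075, 0.017 and 0.049. All 100 had a positive correlation with maturity in each colony, with medians of 0.398, 0.275 and 0.460 in colonies 2, 3 and 4. The lowest of the 3 came from colony 3 in 73 members, and reached 0.002 there. The last gene inside the bound, evm.model.ctg165.31, stood at 0.3117 and the first outside, evm.model.ctg71.40, at 0.3103, so the edge of the list is no gap in the data. A further 87 gene models had a maturity correlation at least as high as the last member and were left out for age, 63 because they rose with age as well and 24 because they fell with it.

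**Figure D1:**
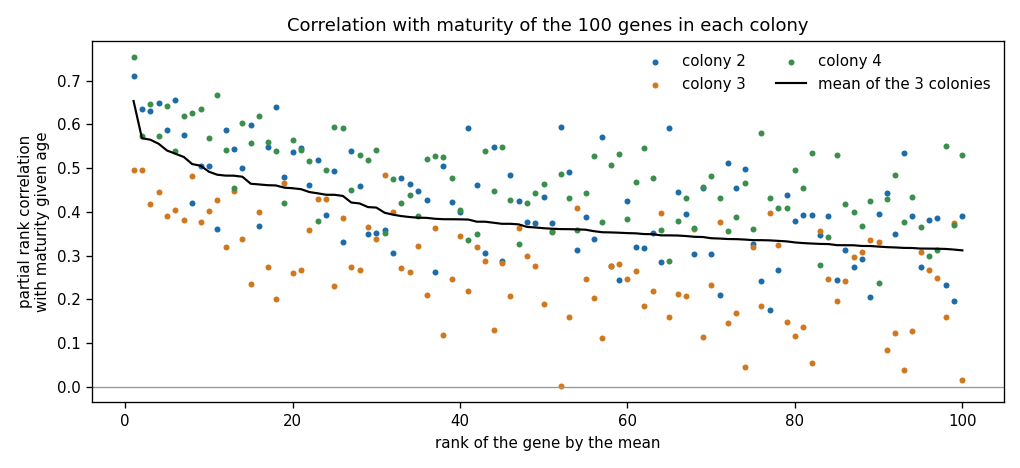
Partial Spearman correlation of CPM with oriented maturity given age (vertical axis, no unit) for the 100 genes in order of rank (horizontal axis), with 1 point per colony and a line for the mean of the 3 colonies. The line falls from 0.653 to 0.312, and the colony 3 points lie lowest in 73 of the 100 genes.

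Levels at the high end exceeded those at the low end by modest amounts. The median CPM of high-end ants was above that of low-end ants in all 100 members, also within every colony. The ratio of these medians ran from 1.04 to 2.57 with a median of 1.18, against a median of 0.991 over all gene models with 5 CPM or more. It was above 1.5 in 9 members and above 2 in 3 of them. The rule required a median of 5 CPM or more, and the members had medians from 5.87 to 2821 CPM. The middle one of these was 96.7 CPM, against 54.6 CPM over all gene models with 5 CPM or more. Each member had at least 1 read in every labelled ant. The 40 ants between the ends stood between them in 89 members and above the high end in 11. In the median member, they lay 0.64 of the way from the low-end to the high-end median.

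The gene model evm.model.ctg46.27 had the highest maturity correlation of the members, at 0.711, 0.495 and 0.754 in colonies 2, 3 and 4. Its level ran from 11.1 to 104.4 CPM at the low end (median 41.2, n = 162), and from 37.3 to 183.7 CPM at the high end (median 92.1, n = 87). The ends overlapped, but 84 of 87 high-end ants stood above the low-end median and 37 above every low-end ant. The slope from maturity 0 to 1 with age in the model was 1.26 ± 0.10 log2, while that on age was 0.05 ± 0.05 log2 per 12 months. By colony, the medians at the low and high ends were 38.1 and 85.4 CPM in colony 2, 37.8 and 75.8 CPM in colony 3, and 48.9 and 136.2 CPM in colony 4.

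The gene model evm.model.ctg218.1 came next, with correlations of 0.636, 0.496 and 0.573 in the 3 colonies. It was a low-level gene, with a median of 4.96 CPM at the low end (2.02 to 17.0, n = 162) and 8.92 CPM at the high end (3.80 to 14.4, n = 87). Here 85 of 87 high-end ants stood above the low-end median but none above every low-end ant, because low-end ants of colony 4 held the highest values. The largest slope was that of evm.model.ctg116.35, at 1.39 ± 0.16 log2. Its median was 9.79 CPM at the low end (4.22 to 71.6, n = 162) and 25.1 CPM at the high end (6.42 to 89.7, n = 87), with 81 of 87 high-end ants above the low-end median and 2 above all low-end ants. In this gene the high end was widely spread, and its lowest ants stood below the low-end median.

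**Figure D2:**
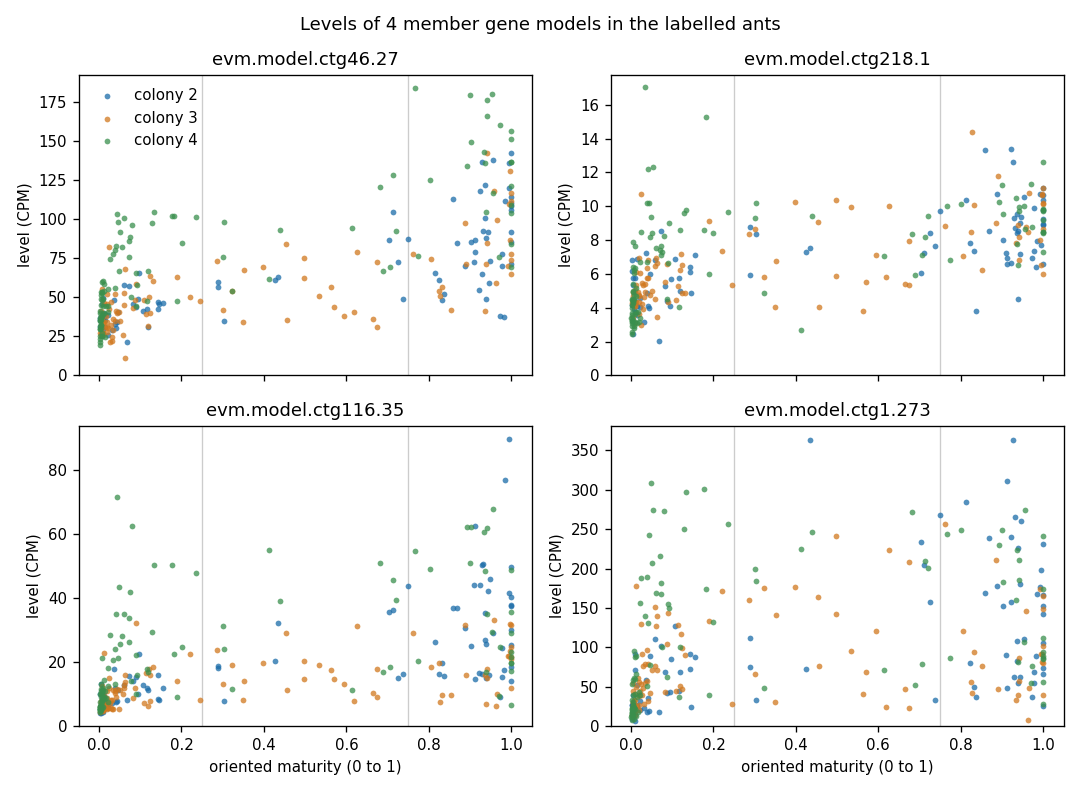
Levels in CPM (vertical axes, linear from 0) of 4 members in each of the 289 labelled ants against oriented maturity (horizontal axes, 0 to 1), with points coloured by colony and grey lines at 0.25 and 0.75. In evm.model.ctg46.27 the high-end ants have a median of 92.1 CPM against 41.2 CPM at the low end, and evm.model.ctg1.273 ranges from 6.73 to 308.8 CPM within the low end.

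Because the selection fixed both directions, edgeR fits of the same contrast add sizes but no evidence. With colony, maturity and age in the model, 99 of the 100 members were called as rising with maturity, where 9.83% of all genes tested and 10.1% of those with a median of 5 CPM or more were called. The median slope was 0.237 log2. The member not called, evm.model.ctg19.37, had a slope of 0.22 ± 0.09 log2 (adjusted p = 0.081, edgeR). On age, 4 members were called as rising, against 4.54% and 4.41% of the genes. The slope on age was above 0 in 87 members, against 47.4% of genes with a median of 5 CPM or more.

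Age and maturity came apart in 2 sets of ants. There were 14 ants aged 14 months or less at the high end, with a mean age of 9.36 months, and 27 older ants at the low end, with a mean age of 21.1 months. The young high-end median was above the old low-end median in 87 of 100 members, although those ants were younger. In evm.model.ctg46.27 the medians were 39.8 CPM in young low-end ants, 57.8 CPM in old low-end ants, 98.3 CPM in young high-end ants and 87.8 CPM in old high-end ants. At the low end the older ants had the higher median in 80 members, and at the high end in 51. The sets were unevenly spread over colonies: the young high-end ants numbered 10, 1 and 3 in colonies 2, 3 and 4, and the old low-end ants 1, 8 and 18, so in this contrast age, maturity and colony cannot be told apart.

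A mean level over the 100 members was computed for each ant, with log2 CPM standardised within colony, in units of the SD between ants. Its median was -0.412 at the low end (-1.493 to 0.786), 0.324 between the ends and 0.630 at the high end (-0.629 to 1.311). High-end ants above every low-end ant of their colony numbered 31 of 39 in colony 2, 13 of 24 in colony 3 and 13 of 24 in colony 4. The mean level climbed within the low end too: its rho with maturity there was 0.718 (n = 38), 0.582 (n = 55) and 0.719 (n = 69) in colonies 2, 3 and 4. These values were not adjusted for age, and the rho with age there was 0.471, 0.371 and 0.426. Over all colonies, low-end ants older than 14 months had a median of 0.051, against -0.470 in the other low-end ants. The parts of maturity and age in this climb were not tested. Inside the high end the rho with maturity was 0.282 (n = 39), 0.525 (n = 24) and -0.349 (n = 24), with no shared direction. Over all labelled ants the rho of the mean level with the library total was 0.177, 0.148 and 0.119.

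**Figure D3:**
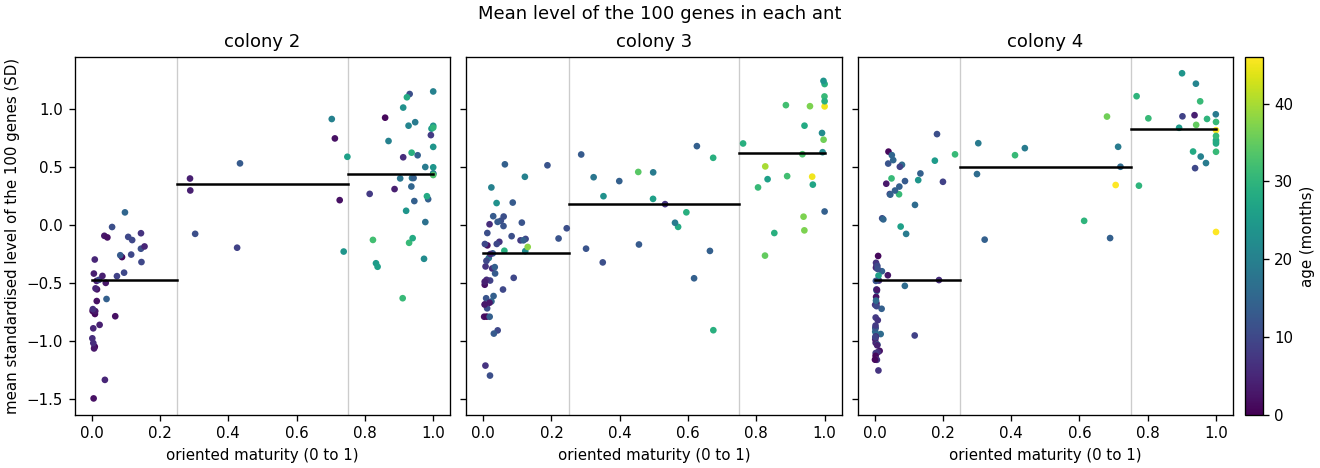
Mean standardised level of the 100 genes (vertical axis, SD units within colony) in each ant against oriented maturity (horizontal axes, 0 to 1) for colonies 2, 3 and 4, coloured by age in months, with black bars at the median of each range. The colony medians rise from -0.475, -0.242 and -0.472 at the low end to 0.443, 0.621 and 0.831 at the high end.

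The selection could be tested in a colony it had not used. The same rule was applied to 2 colonies, and the 100 genes it gave were tested by edgeR for maturity given age in the colony left out. The lists shared 63, 60 and 62 genes with the members when colonies 2, 3 and 4 were left out. In colony 2, 55 of the 100 genes chosen without it rose with maturity, where 6.42% of all genes tested and 6.75% of those with a median of 5 CPM or more did. In colony 4, 63 of 100 rose, against 5.75% and 5.99%. In colony 3, 14 of 100 rose, against 2.18% and 2.1%. None of the lists held a gene called as falling.

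The left-out correlations differed by colony in the same order. The median partial correlation with maturity in the left-out colony was 0.321, 0.160 and 0.421 for colonies 2, 3 and 4, where the median over eligible genes was 0.005, 0.013 and -0.013. The correlation was above 0 in 97, 86 and 100 of the 100 genes, against 51.1%, 53.7% and 47.5% of eligible genes. The median slope there was 0.21, 0.08 and 0.23 log2 from maturity 0 to 1, against 0.007, -0.010 and 0.001 over eligible genes. That slope was above 0 in 97, 67 and 100 of the 100 genes, against 52.3%, 47.1% and 50.6% of eligible genes. The weak relation to age carried over less well: the left-out age correlation lay within 0.1 of zero in 42, 64 and 44 genes. For evm.model.ctg46.27, which was on each of the 3 lists, the slope in the left-out colony was 1.52 ± 0.14, 0.99 ± 0.19 and 1.266 ± 0.17 log2 (adjusted p of 1.63e-14, 0.000445 and 1.15e-08, edgeR). For evm.model.ctg218.1 it was 1.00 ± 0.13, 0.75 ± 0.16 and 0.61 ± 0.19 log2 (adjusted p of 3.59e-08, 0.00144 and 0.0232, edgeR).

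Body length, which the selection did not use, was the label tied to the most members. With colony, maturity and age in the model, 74 of 100 members were lower in longer ants and 0 were higher, where 14.2% of all genes tested and 16.4% of those with a median of 5 CPM or more were lower (edgeR). The slope was below 0 in 98 members, with a median of -0.045 log2 per unit of body length and a median SE of 0.012, while the median over genes with 5 CPM or more was 0.00021. Body length fell with maturity given age, with a partial rho of -0.386, -0.258 and -0.157 in colonies 2, 3 and 4, and its part in the count was not tested. Body length was nearly unrelated to the library total, with rho of -0.124, -0.003 and -0.161. With cubic splines in place of straight lines for maturity and age, 68 members were lower, against 14.1% and 16.2% of the genes.

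The same direction was seen in each colony fitted alone. Members lower in longer ants numbered 40 in colony 2 (9.38% and 10.3% of the genes), where 1 was higher, 21 in colony 3 (1.75% and 2.01%) and 39 in colony 4 (7.45% and 8.52%). The slope was below 0 in 85, 97 and 96 members, and in 80 of them in all 3 colonies. Members called as lower in every colony numbered 12 (0.959% and 1.14%). The spread of length was carried in part by large ants: 55 of 289 were longer than 10 units, and among the 39 high-end ants of colony 2 there were 9. Among the 234 ants of 10 units or less, 15 members were lower, against 1.61% and 1.91% of the genes. There 92 slopes of members stayed below 0, and the median slope was -0.046 log2 per unit. No share of slopes over all genes is given for these ants.

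The 2 members with the largest slopes on body length were evm.model.ctg1.273 and evm.model.ctg116.35. In low-end ants longer than their colony's median, evm.model.ctg1.273 ran from 6.73 to 308.8 CPM (median 40.1, n = 89), and in the shorter ones from 8.75 to 296.9 CPM (median 69.2, n = 73). At the high end its median was 86.2 CPM in longer ants (28.8 to 249.2, n = 31) and 144.3 CPM in shorter ones (7.71 to 363.6, n = 56). The longer ants had the lower median at both ends, with ranges that overlapped almost wholly. The slope was -0.44 ± 0.07 log2 per unit (adjusted p = 1.39e-08, edgeR).

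The gene model evm.model.ctg116.35 fell by 0.36 ± 0.05 log2 per unit of length (adjusted p = 1.26e-10, edgeR). Its medians were 8.34 CPM in longer and 11.3 CPM in shorter ants at the low end, and 19.9 and 29.4 CPM at the high end. In fits of 1 colony each, the slope on length in colonies 2, 3 and 4 was -0.28 ± 0.07, -0.33 ± 0.07 and -0.44 ± 0.08 log2. The top member by maturity, evm.model.ctg46.27, was also lower in longer ants, by -0.24 ± 0.04, -0.29 ± 0.05 and -0.22 ± 0.05 log2 per unit in colonies 2, 3 and 4. Over all members, the longer ants had the lower median in 74 of 100 at the low end and in 88 of 100 at the high end. The split by length was not adjusted for maturity, with which body length fell, so these counts are a description.

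**Figure D4:**
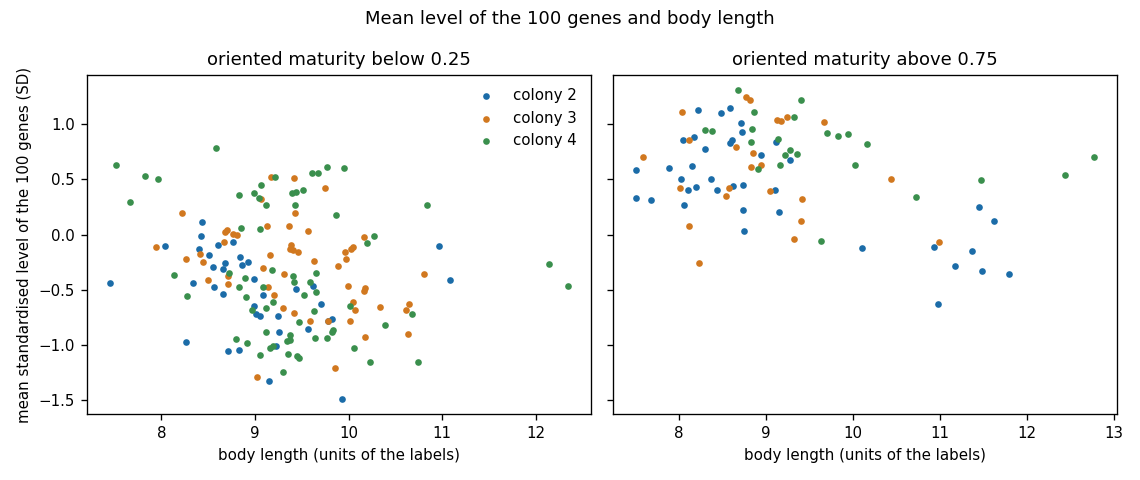
Mean standardised level of the 100 genes (vertical axis, SD units) against body length (horizontal axis, in the units of the labels) for ants below 0.25 and above 0.75 of oriented maturity, coloured by colony. At both ends longer ants tend to lower values, and the ants above 10 units number 27 of 162 at the low end and 17 of 87 at the high end.

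Of the tasks inside the nest, attending the queen went with lower levels. With maturity and age in the model, 53 of 100 members were lower in ants seen more often with the queen and 0 were higher, against 6.96% of all genes tested and 7.46% of those with a median of 5 CPM or more. The slope was below 0 in 99 members, with a median of -0.027 log2 per log2 unit of the tally plus 1. Queen attending fell with maturity given age (partial rho of -0.581, -0.625 and -0.705 in colonies 2, 3 and 4), and members were selected on maturity. With splines for maturity and age 20 members were lower, against 2.87% and 2.9% of the genes. Without colony 4, 0 members were called and 0% of all genes were, while 10 of the 100 slopes were above 0.

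The gene model evm.model.ctg1.273 had the largest slope on queen attending. Among low-end ants its median was 40.1 CPM in those seen with the queen (6.73 to 308.8) and 126.6 CPM in the 31 that were not (22.7 to 274.9). High-end ants had a median of 105.6 CPM. These medians pool the colonies and were not adjusted for maturity inside the low end, so the part of queen attending in them was not tested. The slope was -0.37 ± 0.06 log2 (adjusted p = 1.85e-07, edgeR). The gene model evm.model.ctg4.93 followed, at -0.21 ± 0.04 log2 (adjusted p = 3.47e-05, edgeR), with medians of 16.8 CPM in low-end attendants (6.70 to 97.8) and 25.4 CPM in the other low-end ants (10.7 to 128.7). Without colony 4 neither was called (edgeR adjusted p of 0.0608 for evm.model.ctg1.273 and 0.414 for evm.model.ctg4.93). Over all members, low-end attendants had the lower median in 91 of 100. This split was not adjusted for maturity, which chose the members and with which queen attending fell, so the count is a description.

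Brood care gave a like picture with a weaker footing. Lower levels in ants that tended brood more often were called in 43 of 100 members and higher levels in 0, where 3.24% of all genes tested and 3.23% of those with a median of 5 CPM or more were lower. The partial rho of brood care with maturity given age was -0.750, -0.668 and -0.748, the strongest of the labels in each colony. With splines for both maturity and age, 0 members were called (17 at an unadjusted p under 0.05), where 0% of all genes were lower. Without colony 4, 0 members were called as well, against 0.0778% of all genes tested and 0.0489% of those with a median of 5 CPM or more. Calls were thus nearly lost over all genes in both fits, and these counts say nothing particular to the members. In evm.model.ctg1.273 the low-end median was 42.7 CPM in the 144 ants seen with brood (6.73 to 308.8) and 131.4 CPM in the 18 that were not (37.0 to 301.6). Its slope was -0.34 ± 0.05 log2 (adjusted p = 2.92e-06, edgeR), and that of evm.model.ctg116.35 was -0.25 ± 0.04 log2 (adjusted p = 5.08e-07, edgeR). Without colony 4 these slopes were -0.15 and -0.10 log2 and neither was called (edgeR adjusted p of 0.83 and 0.825).

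Nest cleaning ran the other way. With maturity and age in the model, 37 of 100 members were higher in ants that cleaned more and 0 were lower, against 5.18% of all genes tested and 5.51% of those with a median of 5 CPM or more. Colony 4 fitted alone called 68 members as higher, where 14.1% of all genes tested and 15.2% of those with a median of 5 CPM or more were. The slope was above 0 in 40 members in colony 2, in 86 in colony 3 and in 98 in colony 4, and in 31 members in all 3. Over genes with a median of 5 CPM or more it was above 0 in 51.2%, 47.1% and 47.1% in colonies 2, 3 and 4. Without colony 4, 0 members were called, where 0% of all genes were. With splines for maturity and age the count was 4 (0.689% and 0.526% of the genes), and with runs of 10 ants of consecutive numbers as blocks it was 5 (1.01% and 1.2%). Without colony 2 it was 69 (13.1% and 14.6%). The partial rho of nest cleaning with maturity given age was 0.228, -0.218 and -0.145.

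The 2 members with the largest slopes on nest cleaning were again evm.model.ctg1.273 and evm.model.ctg4.93. In low-end ants evm.model.ctg1.273 had a median of 64.1 CPM in the 90 that cleaned (6.73 to 308.8) and 32.9 CPM in the 72 that did not (8.14 to 301.6), with a slope of 0.19 ± 0.05 log2 per log2 unit of the tally plus 1 (adjusted p = 0.00381, edgeR). That call was lost without colony 3 (adjusted p = 0.113, edgeR) and without colony 4 (adjusted p = 0.344, edgeR). For evm.model.ctg4.93 those medians were 17.8 and 17.0 CPM, and the slope was 0.18 ± 0.03 log2 (adjusted p = 0.000161, edgeR). Within colony 4 alone that slope was 0.40 ± 0.05, against 0.002 ± 0.046 in colony 2 and -0.008 ± 0.077 in colony 3, and without colony 4 it was -0.02. The low-end medians of this gene were close, and its slope was above 2 SE in colony 4 alone.

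**Figure D5:**
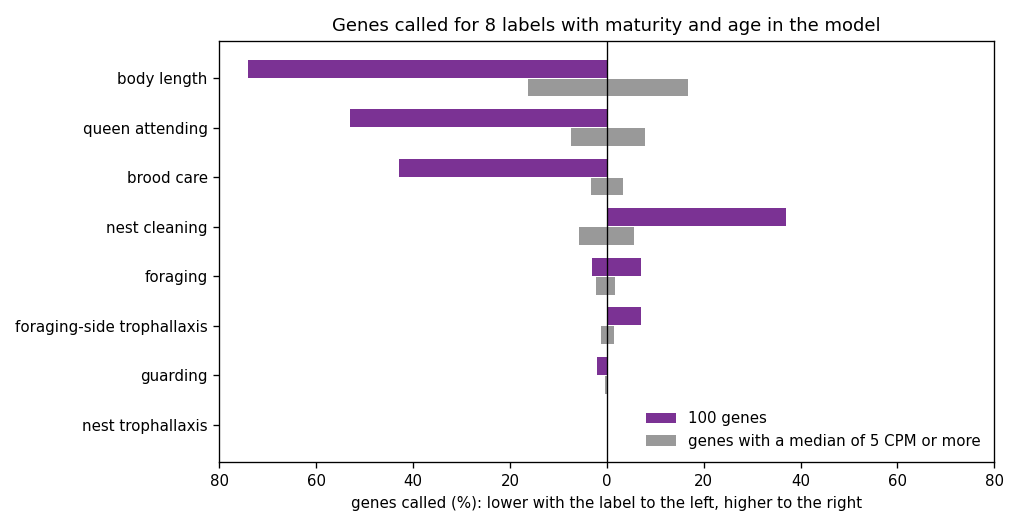
Percent of genes called by edgeR (horizontal axis; lower with the label to the left of 0, higher to the right) for 8 labels with maturity and age in the model, for the 100 genes and for the 8182 gene models with a median of 5 CPM or more. Body length reaches 74% of the 100 genes on the lower side against 16.4%, and nest trophallaxis has 0 of the 100.

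Few members were called for labels of work outside the nest once maturity was in the model. On the nurse-forage ratio, 7 members rose (1.75% of all genes tested and 1.64% of those with a median of 5 CPM or more) and 3 fell (2.21% and 2.22%). The ratio rose with maturity given age, with a partial rho of 0.671, 0.488 and 0.562, and is taken below as a measure of foraging, which the labels do not state. With splines 4 members were called in either direction (0.631% and 0.55% of the genes). Without colony 2 the count was 3 (1.32% and 1.34%), and without colony 3 it was 4 (1.33% and 1.32%). The gene model evm.model.ctg43.82 rose most. At the high end its median was 137.2 CPM in the 73 ants with a ratio above 0 (76.4 to 962.9) and 117.3 CPM in the 14 at 0 (85.1 to 141.8), and its slope was 0.52 ± 0.12 log2 (adjusted p = 0.00114, edgeR), or 0.44 ± 0.10 without the colony 3 ant at 962.9 CPM. Without colony 3 altogether it was 0.12 log2 (adjusted p = 0.818, edgeR), and with splines 0.38 (adjusted p = 0.334, edgeR), so neither fit called it.

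The gene model evm.model.ctg49.10 also rose with the ratio. Its high-end median was 18.1 CPM in ants with a ratio above 0 (10.4 to 30.6, n = 73) and 12.9 CPM in those at 0 (9.21 to 18.1, n = 14), and its slope was 0.51 ± 0.09 log2 (adjusted p = 3.59e-06, edgeR). The low-end median was 10.8 CPM over all colonies (n = 162), but 13.1, 10.1 and 10.4 CPM in colonies 2, 3 and 4. High-end ants with a ratio of 0 were mostly of colony 2, and the rest were of colony 3. High-end medians split by the ratio thus mix in colony, for this gene and for the others named. Among the members that fell, evm.model.ctg1.273 had the largest slope, at -1.56 ± 0.33 log2 (adjusted p = 0.000404, edgeR), but it was not called without colony 2 (adjusted p = 0.0578, edgeR) or with splines (adjusted p = 0.387, edgeR). The next, evm.model.ctg116.35, had -0.79 ± 0.24 log2 (adjusted p = 0.0356, edgeR). That call was lost by limma-voom (adjusted p = 0.0983), without any 1 of the colonies (edgeR adjusted p of 0.182, 0.229 and 0.381 without colonies 2, 3 and 4), and with runs of ants, splines or own slopes per colony. Their medians did not fall at the high end: evm.model.ctg1.273 had 106.4 CPM in high-end ants with a ratio above 0 and 91.7 CPM in those at 0, and evm.model.ctg116.35 had 26.9 and 17.0 CPM.

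Guarding was called lower in 2 members, evm.model.ctg59.2 and evm.model.ctg49.10, where 0.306% of all genes tested and 0.318% of those with a median of 5 CPM or more were lower. Their slopes were -0.046 ± 0.010 and -0.069 ± 0.017 log2 per log2 unit of the tally plus 1 (adjusted p of 0.0088 and 0.0233, edgeR). At the high end evm.model.ctg59.2 had a median of 157.2 CPM in the 50 guards (92.5 to 225.8) and 174.9 CPM in the other 37 ants (116.6 to 217.2), which overlapped. With splines 0 members were called (22 at an unadjusted p under 0.05), where 0.0287% of all genes tested and 0.0367% of those with a median of 5 CPM or more were lower. Without colonies 2, 3 and 4 in turn, 1, 1 and 0 members were called, and with own slopes per colony 0. No share over all genes is given for these fits, so their counts say nothing particular to the members. Both members also rose with the nurse-forage ratio.

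Trophallaxis is the sharing of food from mouth to mouth. On the foraging side, 7 members were higher in ants seen sharing more (1.74% of all genes tested and 1.53% of those with a median of 5 CPM or more) and 0 were lower. Without colony 3 the count was 0, against 0.0291% and 0.0244% of the genes. The calls of evm.model.ctg19.37 and evm.model.ctg43.82, the 2 with the largest slopes, rested on single ants of colony 3. The first had a slope of 0.22 ± 0.04 log2 (adjusted p = 9.54e-07, edgeR), and 0.04 ± 0.03 without the ant at 942.6 CPM (adjusted p = 0.72, edgeR). The second had 0.20 ± 0.03 log2 (adjusted p = 1.26e-05, edgeR), and 0.11 ± 0.03 without the ant at 962.9 CPM (adjusted p = 0.0713, edgeR). Inside the nest, trophallaxis called 0 members by edgeR (7 at an unadjusted p under 0.05), where 0.0861% of all genes tested and 0.0611% of those with a median of 5 CPM or more were called, and 0 by DESeq2 and by limma-voom.

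The labels called overlapping sets of members. Of the 100, 87 were called for at least 1 label (37.8% of all genes tested and 40.6% of those with a median of 5 CPM or more), and 13 for none. Those called for 3 or more labels numbered 40 (8.37% and 9.53%), and those for body length only 14 (15% and 16.3%), near the share of all genes. Queen attending and body length shared 45 members, which is 84.9% of the former and 60.8% of the latter, where 10.3% of all genes tested and 12.3% of those with a median of 5 CPM or more were called for both. Brood care and queen attending shared 35, which is 81.4% of the former and 66.04% of the latter (3.38% and 3.89% of the genes). For queen attending, nest cleaning and body length together 29 members were called (5.66% and 6.83%). These fits share the same ants, and the labels were related to the maturity that chose the members.

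With the nurse-forage ratio, brood care and queen attending in the model beside age, little of the maturity slope was left to estimate. The median slope over the members was 0.009 log2, against 0.237 without the behaviours, and the median SE grew to 0.076. In this model 1 member was called as rising, where 0.602% of all genes tested and 0.562% of those with a median of 5 CPM or more were. For evm.model.ctg46.27 the slope was 0.36 ± 0.17 log2 and for evm.model.ctg116.35 it was 0.47 ± 0.28 log2. The labels were strongly tied to maturity, and their parts cannot be told apart.

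The members also differed between the colonies in level, at a rate near that of all genes tested. With maturity and age in the model, 50 members differed between colonies 2 and 3 (42% of all genes tested and 41.9% of those with a median of 5 CPM or more). Between colonies 2 and 4, 75 members differed (67.3% and 71.4%), and between colonies 3 and 4, 76 did (63.6% and 66.5%). Members called for no pair numbered 12 (18.3% and 16.2% of the genes), and 31 were called for all (21.3% and 23.3%). The largest differences reached nearly 1 log2. Ants were the replicates in these tests, and colony cannot be told apart from any batch that its ants shared. The gene model evm.model.ctg4.93 was higher in colony 3, at 8.98 to 160.0 CPM (median 32.1, n = 98), than in colony 2, at 6.70 to 77.3 CPM (median 20.0, n = 87), by 0.94 ± 0.13 log2 (adjusted p = 3.88e-10, edgeR). The gene model evm.model.ctg6.340 was lower in colony 3, at 2.34 to 9.71 CPM (median 4.42), than in colony 2, at 4.19 to 15.8 CPM (median 8.86), by -0.90 ± 0.06 log2 (adjusted p = 6.92e-35, edgeR).

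Colony 4 stood apart in other members. The gene model evm.model.ctg21.89 had a median of 3.98 CPM there (1.38 to 10.4), against 7.15 CPM in colony 2 (1.74 to 14.0) and 7.39 CPM in colony 3 (1.97 to 12.6). Its difference was -0.79 ± 0.07 log2 from colony 2 and -0.89 ± 0.07 log2 from colony 3 (adjusted p of 4.23e-21 and 5.41e-31, edgeR). The gene model evm.model.ctg80.46 had medians of 44.1 CPM in colony 4 (22.3 to 78.4) and 72.9 CPM in colony 2 (33.0 to 103.9), a difference of -0.70 ± 0.05 log2 (adjusted p = 2.17e-38, edgeR). Within each of these colonies the high end still stood above the low end: in evm.model.ctg80.46 the medians were 38.2 and 54.8 CPM in colony 4 and 67.8 and 75.7 CPM in colony 2.

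The steepness of the relation to maturity differed between colonies in 35 of 100 members by edgeR's F-test of the interaction, against 16.1% of all genes tested and 17.8% of those with a median of 5 CPM or more. Colony 3 had the lowest slope in 27 of the 35 and colony 4 the highest in 25. When age also had its own slope in each colony, 4 members were called, where 3.82% of all genes tested and 4.39% of those with a median of 5 CPM or more were, so the members' share was then that of all genes. The test used the ants and labels that chose the members, though not their difference between colonies. The widest spreads were those of evm.model.ctg1.273 and evm.model.ctg116.35, whose slopes were highest in colony 2. In evm.model.ctg1.273 the low-end and high-end medians were 34.4 and 142.3 CPM in colony 2, 51.1 and 83.7 CPM in colony 3, and 51.5 and 135.8 CPM in colony 4. In evm.model.ctg116.35 they were 8.97 and 29.2 CPM, 8.34 and 19.2 CPM, and 11.3 and 32.3 CPM.

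The members varied together between ants after straight-line relations to maturity and age were removed from log2 CPM within colonies. The median rank correlation of what remained was 0.252 over the 4950 pairs of members, and 89.5% of pairs were above 0. Over all pairs of genes with 5 CPM or more the median was 0.016 and 51.99% were above 0. A shared relation to maturity or age that is not a straight line was not removed. With library total also removed the median was 0.255, and with body length removed 0.212. Average-linkage clustering into 3 groups put 98 members into one of them. This describes shared variation and has no test, since the genes were selected together.

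The members lay on 58 contigs, where 292 contigs held an eligible gene. Of the 58, 33 held a single member, and at most 5 members lay on 1 contig, which holds 527 gene models. By the numbers in their identifiers, 4 pairs of members were next to each other. The number of such pairs expected by chance was not computed, so this count does not show whether members lie scattered or clustered. Neighbours that were eligible and not members had a median maturity correlation of 0.022, and 56.6% of them were above 0, against 49.4% of all eligible genes that were not members.

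The list itself depended on the rule. With TMM-scaled CPM 93 of the 100 were chosen again, with library total as a further covariate 89, and with a median of 1 or 10 CPM as the floor 94 and 91. With Pearson correlations of log2 CPM 62 were chosen again, and with body length given beside age 64. With maturity as deposited in colony 4, 12 were.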

How the data were processed

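Brains of single Camponotus fellah ants were sequenced from stranded mRNA libraries, per the labels' protocols. The authors deposited raw counts, whole numbers of reads for each gene model. STAR and featureCounts are named per the submitters' processing notes. Versions, genome build, annotation and strand setting are not given in the sources used here. Reads of overlapping models on opposite strands, and of near-identical copies, may thus be uncertain. All columns matched a labelled ant, and 10 ants without labels entered no test.

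CPM and the partial Spearman correlations of the rule were computed in Python 3.11.15 (numpy 2.4.6, scipy 1.17.1). Tests were edgeR 4.0.16 quasi-likelihood F-tests in R 4.3.3 on the counts, with TMM normalization, filterByExpr on colony (10457 genes), robust dispersions and adjustment by Benjamini-Hochberg across every tested gene, called below 0.05. All 289 labelled ants entered each model, with colony, oriented maturity and age as covariates; colonies fitted alone had their own spread. Tallies entered as log2 of the tally plus 1, the ratio and body length as deposited, maturity from 0 to 1 and age per 12 months; SE is the slope over the root of F. The models were tested on simulated data. Alternatives were size factors of DESeq2, no filter on low counts, limma-voom (limma 3.58.1), DESeq2 1.42.0, library total as a covariate and each colony left out; those chosen after seeing the data are named in the closing section. The identifiers printed are, per comparison, up to 2 called members with the largest slopes in each direction, the 2 with the highest maturity correlation, and the genes at the bound; evm.model.ctg19.37 was also named as the only member not called. The members, tests and rules were chosen with earlier results of these data known. All members had reads in every labelled ant, and the SE holds both counting error and the spread between ants.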

Additional observations from a re-analysis of the deposited data

Results flagged for a closer look

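The slope on maturity differed between colonies by the F-test of the interaction in 35 of the 100 members. Among the members with the widest spread, the edgeR adjusted p was 0.0472 for evm.model.ctg1.273 and 0.0421 for evm.model.ctg116.35. In evm.model.ctg1.273 the slope was 1.35 log2 lower in colony 3 and 0.85 log2 lower in colony 4 than in colony 2, and in evm.model.ctg116.35 it was 0.94 and 0.60 log2 lower. The count was 4 when age had its own slope in each colony, where 3.82% of all genes tested were called, so the members then stood at the share of all genes.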

How the results depend on the processing

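Of the recomputed counts for whole comparisons, 97 stayed within 1.5 times of the reported count and 28 did not. Settings chosen after seeing the data were splines, runs of 10 ants as blocks, own slopes per colony, rank of body length, ants of 10 units or less, body length in the rule or removed from the pair correlations, and named members without their highest ant. With splines of maturity and age, counts were 4 for foraging, 0 for brood care, 20 for queen attending, 4 for nest cleaning, 0 for guarding and 3 for foraging-side trophallaxis. With runs of ants, nest cleaning called 5 and guarding 1; with own slopes per colony guarding called 0, and without a filter 5. Body length called 15 members in ants of 10 units or less, where fewer ants entered. The interaction called 4 with own slopes of age. The rule chose 62 members again by Pearson correlation, 12 with maturity as deposited and 64 given body length too.

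Leaving out each colony in turn gave 3 to 12 members for foraging, 0 to 61 for brood care, 0 to 63 for queen attending, 0 to 69 for nest cleaning, 0 to 1 for guarding, 0 to 10 for foraging-side trophallaxis and 49 to 67 for body length. The slope of evm.model.ctg4.93 on nest cleaning ran from -0.02364 log2 without colony 4 to 0.2798 without colony 2. Of the recomputed values of named members, 36 lost their call and 181 kept direction and call. In some of these fits calls fell over all genes as well, and the shares given above show this. Other counts in this section stand without a share over all genes, so they say nothing particular to the members. Unless stated, the cause was not tested. No paired analysis was possible because the ants of the colonies have different replicate names and no label ties them across colonies.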

Other observations

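The 10 ants without labels entered no comparison. Their mean standardised level over the 100 members ran from -0.65 to 1.09, with a median of -0.22. Of these ants, 2 stood above the median of the labelled high-end ants and 3 below that of the low-end ants.

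Head width, tested in no comparison, had a partial rho of -0.524, -0.343 and -0.325 with the mean level of the 100 members given maturity and age in colonies 2, 3 and 4, where body length had -0.479, -0.443 and -0.453. Head width and body length had a rho of 0.696, 0.735 and 0.700 with each other. An ant of colony 4 has a head width of 0 in the labels, and the lowest value in colony 3 is 0.14.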
